A study of Homo sapiens with 24 samples.

Results

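An SLFN11 knockout derivative of ES8, a line grown from a human Ewing sarcoma, was compared with parental ES8 cells 4 h after 2 Gy of gamma radiation. The 6 arrays were taken from the 24 of the series by cell line, dose and time. The comparison itself was chosen with earlier results of these data known. Of the 6 arrays, 3 hold the knockout line (ES8-1F2, SLFN11 disrupted with CRISPR/Cas9) and 3 the parental ES8 line, and all 6 samples had received 2 Gy. The knockout line is 1 derivative of ES8, grown like its parent in serum-supplemented DMEM/F12, and effects of the lost gene cannot be told apart from other differences between these lines. The series also holds both lines at 0 Gy and at 24 h, with 3 arrays for each of its 8 groups, and those arrays are used below for comparison. The labels do not say whether replicates were grown separately. The p-values then measure only how far these samples spread, and that spread may be technical.

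SLFN11 belongs to the Schlafen family. It is recruited to stressed replication forks, where it blocks further replication, and it cleaves certain transfer RNAs, which lowers the translation of some proteins after DNA damage. Cells that have lost it are known to survive DNA-damaging drugs better. Ionising radiation breaks DNA, and cells with such breaks stop before mitosis for some hours, while transcripts of the mitotic programme fall. That programme is switched on in G2 by MuvB-containing complexes, which bind the cell cycle genes homology region (CHR) near the start of their target genes, and by NF-Y, which binds CCAAT boxes. Ewing sarcoma cells carry an EWSR1 fusion, most often EWSR1-FLI1, that drives much of their transcriptome.

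The values are log2 signals, so that a difference of 1 is 2-fold. Pearson's r, taken over genes that are not independent of each other, was 0.972 to 0.983 between lines and 0.985 to 0.992 between the arrays of a group. Replicate 2 of the parental cells stood apart by a narrower spread of signals. Its interquartile range was 3.28, against 3.43 to 3.62 on the other 5 arrays. Some results that lean on this array are given without it as well, but the count of every list is not. Of 12 Ewing sarcoma markers measured, all were above background, CD99, NKX2-2 and STEAP1 among them. Of these 12, 4 were called higher in knockout cells (PRKCB, LIPI, NKX2-2, CD99) and 4 lower (GLI1, HOXD13, KCNAB3, STEAP1), which is 66.7% against 12% of all genes. Their mean signal, in which these differences offset each other, was 7.04 to 7.13 on the knockout arrays and 7.02 to 7.12 on the parental arrays. No marker of epithelial (10), blood (9), endothelial (10) or skeletal muscle cells (6) was called by limma at an adjusted p below 0.05. At an unadjusted p below 0.05, 1 endothelial marker was higher, and 2 epithelial, 1 blood and 2 skeletal muscle markers were lower. Many of these markers gave a signal: the mean exceeded background in at least 1 line for 7 of 10 epithelial, 5 of 9 blood, 6 of 10 endothelial, 3 of 6 skeletal muscle and 7 of 8 fibroblast markers. KRT8, HBA1, VWF, TIE1, CLDN5, ESAM and PDGFRA were above background on all 6 arrays, and CDH1, PTPRC, KDR and FAP on none. Epithelial markers averaged 4.04 to 4.15 on knockout and 4.12 to 4.29 on parental arrays, and blood markers 3.75 to 3.85 on knockout and 3.77 to 3.95 on parental arrays. Endothelial markers averaged 4.01 to 4.19 on knockout and 3.97 to 4.32 on parental arrays, and skeletal muscle markers 3.37 to 3.67 on knockout and 3.72 to 3.84 on parental arrays. The part of the lower skeletal muscle markers in the results was not tested. The 8 fibroblast markers averaged 5.24 to 5.37 on knockout and 5.21 to 5.59 on parental arrays. Among the fibroblast markers PDGFRA was called higher (0.92). LUM was called lower (adjusted p = 0.000267), but was above background on 0 of 3 knockout and 2 of 3 parental arrays, so no fold is given.

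SLFN11 itself was measured at 6.33, 6.72 and 6.68 in the 3 knockout arrays, against 8.05, 8.03 and 8.23 in the 3 parental arrays. The groups did not overlap, and all 3 knockout values stayed above the background of their array. The difference was −1.53 (SE 0.13, adjusted p = 1.33e-10 by limma), which is 2.89-fold lower, and it was −1.46 between the lines at 0 Gy. Where the edit lies relative to the array's probes is not stated. Of the other 5 Schlafen genes measured, SLFN12 was called lower (−0.62, adjusted p = 0.0294), but no knockout array was above background, so no fold is given, and its call was lost without knockout replicate 2 (adjusted p = 0.0665) or 3 (0.229) and without parental replicate 1 (0.0605) or 3 (0.0997). The remaining 4 (SLFN5, SLFN12L, SLFN13, SLFN14) missed the threshold, with differences between −0.24 and 0.18.

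Between the lines 4 h after 2 Gy, 1215 of 17687 genes were called higher in knockout cells and 908 lower, which is 6.87% and 5.13% of all genes tested. Of these, 236 (1.33%) were higher by at least 2-fold and 164 (0.927%) were lower by at least 2-fold. The median difference over all genes was −0.02, and the median 95% interval of a difference reached 0.315 to either side. The groups did not overlap for 4278 genes (24.2%), of which 1164 were also called higher (6.58%) and 857 called lower (4.85%). These shares are the background against which the gene groups below are read.

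The transcript with the highest gain was WFDC1, a secreted protease inhibitor. Its signals were 7.40, 7.38 and 7.09 in knockout cells, against 3.82, 3.70 and 3.75 in parental cells, a difference of 3.53 (SE 0.20, adjusted p = 1.13e-14) or 11.6-fold. CMTM7, a membrane protein of the MARVEL family, read 8.84, 8.79 and 8.80 in knockout cells against 5.94, 5.55 and 5.94 in parental cells (8.02-fold, adjusted p = 3.68e-18). The knockout arrays thus lay far above every parental array for both genes. FLT1, the receptor for VEGF-A and placental growth factor, read 6.24, 5.94 and 5.05 in knockout cells and was not above background in parental cells (2.24, 3.05 and 2.98), which makes it at least 4.67-fold higher (adjusted p = 2.13e-09). The adaptor SAMSN1 was at least 4.13-fold higher (adjusted p = 5.01e-11) and the transcription factor TFEC at least 3.40-fold (adjusted p = 1.00e-11), on the same grounds. The 15 largest rises also held other regulators and signalling genes: POU1F1, the pituitary transcription factor, by 2.50; the homeobox gene HHEX by 2.49; NTS, which encodes the neuropeptide neurotensin, by 2.47; S1PR1, a sphingosine 1-phosphate receptor, by 2.29; the inflammatory caspase CASP4 by 2.25; and the adhesion molecule ICAM2 by 2.14. FAM162B (2.87), TMEM200A (2.32), the secreted SRPX2 (2.27) and the dystrophin-associated SNTB1 (2.26) complete the 15.

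Among the 15 largest falls was SYCP1, a germline protein that holds paired chromosomes together in meiosis. It was not above background in knockout cells (2.22, 2.18 and 2.05), against 7.15, 5.76 and 6.46 in parental cells, so it was at least 7.13-fold lower (adjusted p = 2.72e-14). MBD3L3, MBD3L4 and MBD3L5, near-identical genes between which the probes may not discriminate, were lower by −3.80, −3.78 and −3.63 and are best read as 1 result. SERPINF1, the secreted pigment epithelium-derived factor, read 6.74, 6.21 and 6.34 in knockout cells against 9.48, 9.38 and 9.39 in parental cells (−2.99, 7.93-fold lower, adjusted p = 5.74e-16). No knockout array overlapped a parental one for any of these genes, since only genes without overlap were ranked. Other losses touched the cell surface and the matrix. CYTL1, a secreted cytokine-like protein, was at least 8.01-fold lower (adjusted p = 5.20e-16), PTPRG, a receptor-type tyrosine phosphatase, at least 5.37-fold lower (adjusted p = 7.11e-16) and the BMP antagonist CHRDL1 at least 4.41-fold lower (adjusted p = 7.43e-12), each not above background in knockout cells. The large cadherin DCHS2 fell by 3.09, the microfibril protein MFAP4 by 2.82, the neuronal calcium sensor VSNL1 by 2.78, the phosphodiesterase PDE1B by 2.66, HCLS1 by 2.61, the transporter SLC43A3 by 2.49 and the lysophosphatidic acid receptor LPAR3 by 2.46.

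**Figure D1:**
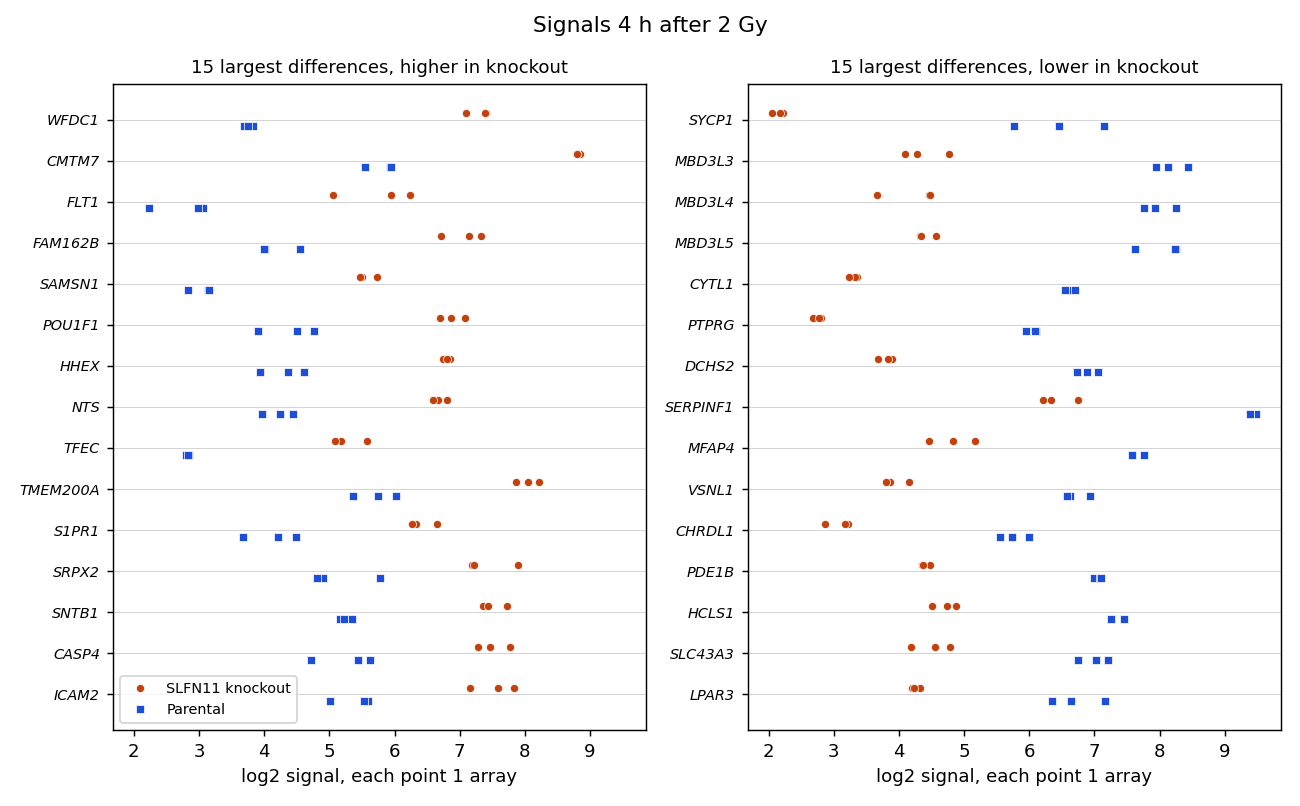
Log2 signal on each of the 6 arrays for the 15 called genes with the largest positive (left) and negative (right) differences, with knockout arrays as circles above parental arrays as squares. The 2 groups are apart for all 30 genes because only called genes without overlap were ranked. WFDC1 (11.6-fold higher) is at the top left. Genes are ordered by measured difference, and SYCP1, CYTL1, PTPRG and CHRDL1 in knockout cells and FLT1, SAMSN1 and TFEC in parental cells are not above background, so their order has no meaning.

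Some transcripts of the mitotic programme were higher in knockout cells. Of 133 measured genes on 5 lists of mitotic roles, 43 were called higher, 90 did not pass and none was called lower by limma, with 59 higher and 5 lower at an unadjusted p below 0.05. The median difference of the 133 was 0.21, against −0.02 over all genes, and 107 were positive. Without parental replicate 2, the array with the narrow signal range, 32 were called higher and 1 lower, and the median was 0.13. On bulk RNA, fewer cells in a phase of the cycle and less RNA per cell in that phase cannot be told apart.

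To show what such genes carry at their starts, the 150 bases upstream of 7 genes are printed 5′ to 3′ on the coding strand (RefSeq, GRCh38.p14). Capitals mark TTTGAA or TTCGAA, the forms of the CHR that were searched for, and CCAAT or its reverse ATTGG. The first 4 genes were called higher in knockout cells; CCNB2, CENPE and CDC20 were not called and are shown for contrast. CDC20 is on the anaphase promoting complex list and not among the 133. CENPE is on the minus strand and the other 6 on the plus strand: HMMR chr5:163460482-163460631, KIF20A chr5:138178962-138179111, CCNB1 chr5:69167000-69167149, PLK1 chr16:23678739-23678888, CCNB2 chr15:59104996-59105145, CENPE chr4:103198344-103198493 and CDC20 chr1:43358831-43358980. In HMMR, CCAAT and ATTGG overlap in CCAATTGG.
HMMR: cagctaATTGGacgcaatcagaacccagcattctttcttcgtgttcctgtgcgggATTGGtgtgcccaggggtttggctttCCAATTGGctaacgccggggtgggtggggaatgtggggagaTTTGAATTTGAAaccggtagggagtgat
KIF20A: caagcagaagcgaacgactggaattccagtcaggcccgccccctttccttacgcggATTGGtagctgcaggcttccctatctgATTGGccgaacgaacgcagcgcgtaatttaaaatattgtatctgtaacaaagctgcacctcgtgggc
CCNB1: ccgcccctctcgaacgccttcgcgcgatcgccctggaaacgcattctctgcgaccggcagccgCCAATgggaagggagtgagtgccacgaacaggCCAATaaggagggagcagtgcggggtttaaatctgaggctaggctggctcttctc
PLK1: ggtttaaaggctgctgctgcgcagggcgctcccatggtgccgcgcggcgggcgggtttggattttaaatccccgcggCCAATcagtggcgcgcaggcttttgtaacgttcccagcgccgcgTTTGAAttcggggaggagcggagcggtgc
CCNB2: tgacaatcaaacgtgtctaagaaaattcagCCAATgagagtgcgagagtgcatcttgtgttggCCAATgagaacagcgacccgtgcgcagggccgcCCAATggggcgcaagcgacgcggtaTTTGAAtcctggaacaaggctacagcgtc
CENPE: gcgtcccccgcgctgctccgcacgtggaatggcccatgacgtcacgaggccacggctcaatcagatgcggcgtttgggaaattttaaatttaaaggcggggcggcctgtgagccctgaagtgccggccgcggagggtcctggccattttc
CDC20: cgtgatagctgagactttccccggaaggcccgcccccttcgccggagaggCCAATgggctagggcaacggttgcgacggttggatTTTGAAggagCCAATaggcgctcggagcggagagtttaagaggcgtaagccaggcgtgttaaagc
Searched on both strands over 300 bases (250 upstream, 50 downstream of the start), TTTGAA or TTCGAA was found in 30 of the 40 mitotic genes called higher that RefSeq's table held (75.0%), in 42 of 70 that were not called (60.0%) and in 2496 of 14250 tested genes (17.5%). CCAAT was found in 32 (80.0%), 43 (61.4%) and 6033 (42.3%), and both motifs in 25 (62.5%), 28 (40%) and 1040 (7.30%). PLK1 and CCNB2 hold both motifs, with TTTGAA close before the start in each, and 1 was called and the other was not. KIF20A and CCNB1 show CCAAT boxes and no TTTGAA or TTCGAA in the bases printed, CDC20 shows both motifs, and CENPE shows neither. A match is a description of these letters, not of a factor's binding. Other forms of the CHR were not searched for, so a gene without a match may still hold one.

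Among the cyclins, kinases and phosphatases that drive entry into mitosis, 7 of 30 were called higher and none lower (1 lower at an unadjusted p below 0.05). CCNB1, the cyclin that activates CDK1 at mitotic entry, read 8.67, 8.69 and 8.87 in knockout cells against 8.37, 7.91 and 8.31 in parental cells (0.54, SE 0.0974, adjusted p = 0.000122). PLK1, the kinase that promotes entry and spindle assembly, read 10.25, 10.45 and 10.54 in knockout cells against 10.10, 10.09 and 10.01 in parental cells (0.35, adjusted p = 0.000492). For both, each knockout array was above each parental array. CDC25C, the phosphatase that removes the inhibitory mark from CDK1, was higher by 0.76, CDK1 itself by 0.49, the spindle checkpoint kinase BUB1 by 0.69, AURKA by 0.36 and CCNA2 by 0.33. CCNB2, a second B-type cyclin, read 8.63, 8.70 and 8.86 in knockout cells against 8.59, 8.46 and 8.53 in parental cells and was not called (0.20, adjusted p = 0.158).

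Mitotic kinesins, the motors that build the spindle and separate daughter cells, had 7 of 15 members called higher, with a median of 0.35. KIF20A, which acts in cytokinesis, read 7.92, 7.84 and 7.88 in knockout cells against 7.46, 6.93 and 7.31 in parental cells (0.65, adjusted p = 0.000293). KIF11, the motor that pushes spindle poles apart, was higher by 0.75, followed by KIF20B (0.55), KIFC1 (0.49) and KIF2C (0.47). CENPE, a kinetochore motor, read 7.02, 6.83 and 6.53 in knockout cells against 6.48, 6.55 and 6.36 in parental cells, where the groups overlapped, and was not called (0.33, adjusted p = 0.110). Kinetochore and centromere genes had 6 of 34 called higher, with a median of 0.15. They were SPAG5 (0.60), SPC25 (0.55), BUB3 (0.51), CENPF (0.47), NDC80 (0.46) and CENPU (0.39).

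Spindle, centrosome and cytokinesis genes had the highest share of the 5 lists, with 15 of 31 called higher and a median of 0.29. CEP55, which directs the final cut between daughter cells, read 5.81, 5.61 and 5.78 in knockout cells against 4.67, 4.22 and 4.57 in parental cells (1.25, SE 0.181, adjusted p = 5.11e-06). HMMR, a spindle assembly factor, read 6.39, 5.76 and 5.75 in knockout cells against 5.47, 4.62 and 5.43 in parental cells (0.79, adjusted p = 0.00371). The groups did not overlap for either gene, though the lowest HMMR value, that of parental replicate 2, lay well under the other parental values. CKAP2, a microtubule-associated protein, was higher by 0.89, CDCA3 by 0.69, the centriole protein STIL by 0.59, CDCA8 of the chromosomal passenger complex by 0.53, and ECT2, which sets up the cleavage furrow, by 0.50. Cohesion and condensation genes had 8 of 23 called higher, and 5 without parental replicate 2. SGO1 (0.73) and SGO2 (0.66), which protect centromeric cohesion, led this group, with MKI67 (0.53), the proliferation antigen that coats mitotic chromosomes, and TOP2A (0.33), the topoisomerase that untangles them. SGO2 lost its call without parental replicate 1 (adjusted p = 0.0673), parental replicate 2 (0.0964) or knockout replicate 1 (0.145).

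The anaphase promoting complex, the ubiquitin ligase that ends mitosis, had 2 of 20 members called higher: its inhibitor FBXO5 (0.76) and ANAPC7 (0.27). ANAPC7 lost its call without parental replicate 2 (adjusted p = 0.0528) or knockout replicate 3 (0.115). Its activator CDC20 read 9.12, 9.43 and 9.34 in knockout cells against 9.42, 9.10 and 9.33 in parental cells, so that the groups overlapped fully (0.01, adjusted p = 0.952).

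**Figure D2:**
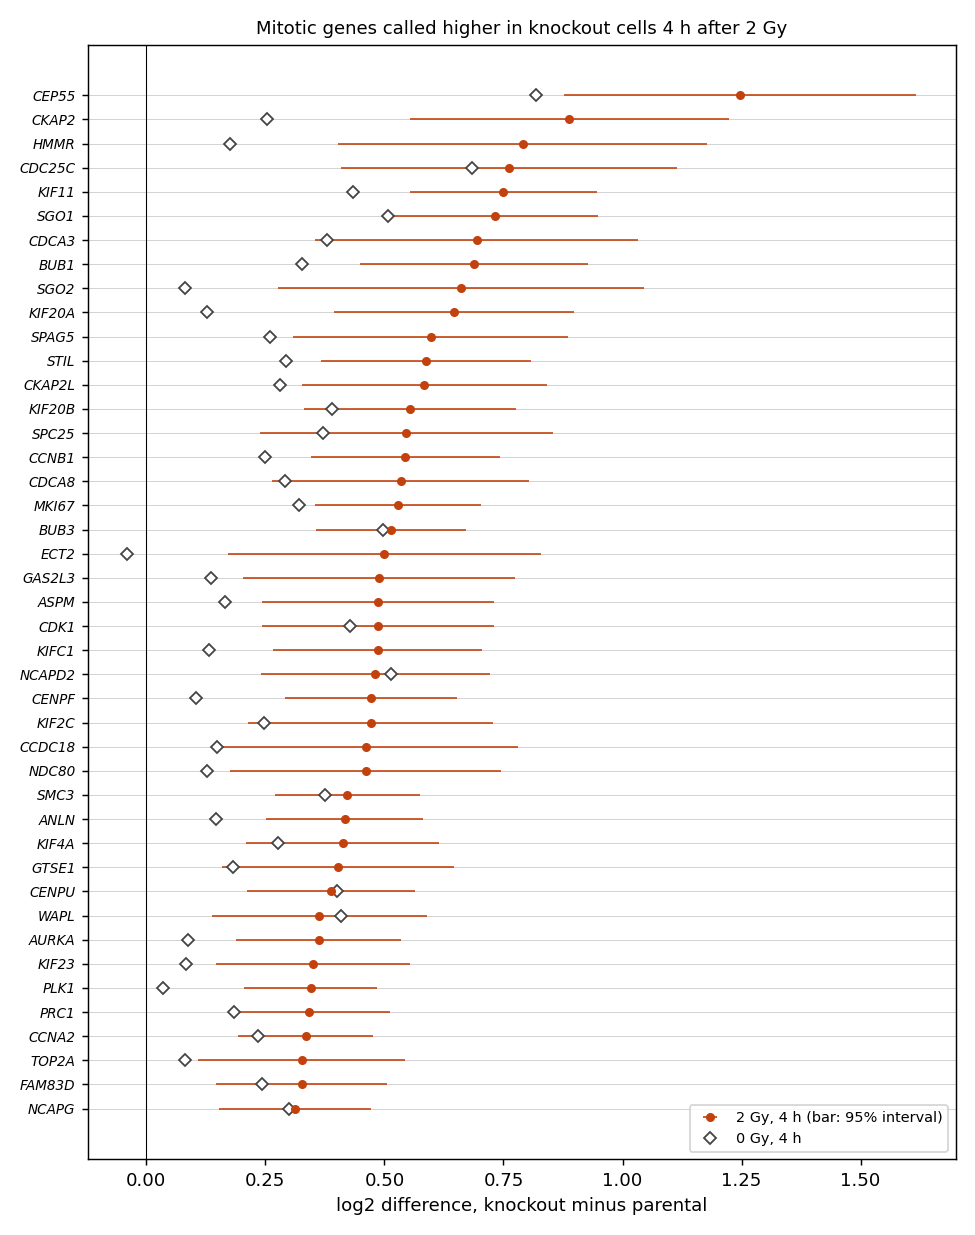
Knockout minus parental log2 difference of the 43 mitotic genes called higher 4 h after 2 Gy (filled circles, with 95% intervals), and of the same genes at 0 Gy, 4 h (open diamonds, other arrays). The differences at 2 Gy run down to 0.31 for NCAPG from 1.25 for CEP55. For most genes the value at 0 Gy is the smaller, but the genes were picked by their 2 Gy values. Through that choice alone, values on other arrays would tend to be smaller, so no effect of dose can be read from these genes. Over all 133 mitotic genes the median was 0.21 at 2 Gy and 0.12 at 0 Gy.

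Some mitotic genes lie in stretches of the genome whose other genes were higher too. Of the 20 nearest measured neighbours above background, 15 were called higher around KIF11, 12 around CEP55 and 9 around MKI67, all on chromosome 10, where 162 of 680 genes (23.8%) were called higher. With the chromosome 10 genes left out, 35 of 123 mitotic genes were called higher, with a median of 0.18. With genes left out that had 10 or more of 20 neighbours called higher, the count was 38 of 128 and the median 0.20. KIF20A (3 neighbours), PLK1 (3) and CCNB1 (2) had few.

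The same 133 genes on the unirradiated arrays at 4 h had 14 called higher and 4 lower, with a median of 0.12. Over all genes these shares were 6.27% and 5.50%. With the chromosome 10 genes left out, 6 of 123 were called higher at 0 Gy, with a median of 0.11. With genes left out that had 10 or more of 20 neighbours called higher, the count was 9 of 128 and the median 0.12. Between the lines 24 h after 2 Gy, 20 of the 133 were called higher and 3 lower (6.29% and 5.68% of all genes). Their median was 0.12 again. The difference between the line differences at 2 Gy and at 0 Gy had a median of 0.09 over the 133 genes and was positive for 95, but none was called by limma (0% of all genes), with 14 at an unadjusted p below 0.05. The larger count after 2 Gy is therefore not shown to differ from the count at 0 Gy.

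The 4 groups at 4 h place the levels. HMMR averaged 5.97 in knockout and 5.18 in parental cells after 2 Gy, and 6.35 in knockout and 6.17 in parental cells at 0 Gy. The 2 Gy minus 0 Gy differences, which share these arrays, were −0.38 in knockout and −0.998 in parental cells for HMMR. They were −0.37 in knockout and −0.89 in parental cells for KIF20A, −0.46 in knockout and −0.76 in parental cells for CCNB1, and −0.26 in knockout and −0.57 in parental cells for PLK1. For CCNB2 they were −0.25 in knockout and −0.24 in parental cells, and for CDC20 −0.38 in knockout and −0.27 in parental cells. Thus HMMR, KIF20A, CCNB1 and PLK1 were further below their 0 Gy level in parental than in knockout cells, while CCNB2 and CDC20 were about as much lower after 2 Gy in either line. Irradiated parental cells had the lowest mean for CCNB2 too (8.53, against 8.73 in irradiated knockout cells), so that place is not particular to the called genes. None of 133 mitotic genes was called between 2 Gy and 0 Gy in knockout cells (0% of all genes). In parental cells, replicate 2 included, 31 were called lower (0.226% of all genes). At an unadjusted p below 0.05 by limma, 49 were lower and none higher in knockout cells. In parental cells 73 were lower and 2 higher at that threshold. The medians were −0.18 in knockout and −0.26 in parental cells. The difference of the 2 responses is the test given above, which called none. For KIF20A that difference was 0.52 (SE 0.175, unadjusted p = 0.00573, adjusted p = 1.00).

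**Figure D3:**
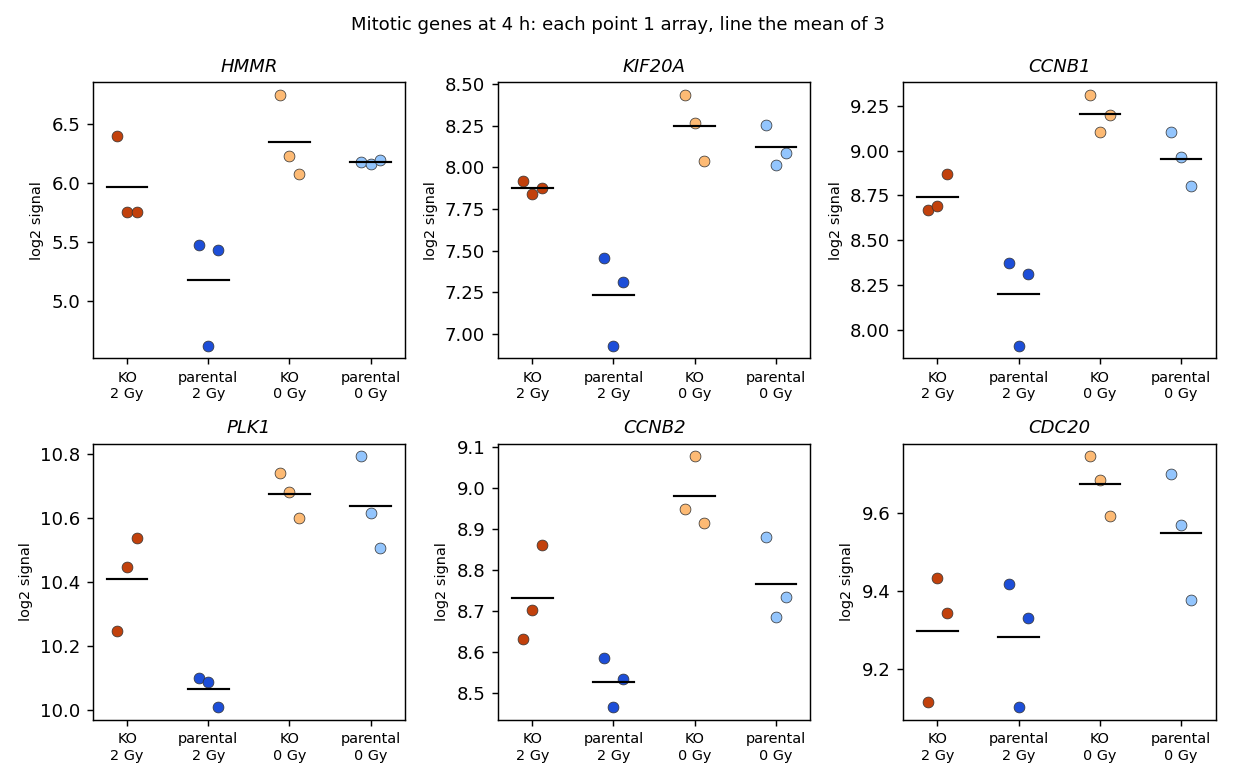
Log2 signal of 6 mitotic genes on the 12 arrays harvested at 4 h, by line and dose, each point 1 array and each line the mean of 3; the vertical axes differ and do not start at 0. HMMR, KIF20A, CCNB1, PLK1 and CCNB2 have their lowest mean in irradiated parental cells, and CDC20 overlaps between the lines at either dose.

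Lists of other cell cycle phases had calls in both directions or few calls. DNA replication genes, with 8.33% higher and 5% lower, were near the shares of all genes (6.87% and 5.13%). The G1/S list was above them (14.3% and 10.7%). Of 28 G1/S cyclins, E2F factors and inhibitors, 4 were called higher and 3 lower. CCND2, a D-type cyclin that drives cells out of G1, read 7.11, 7.42 and 6.88 in knockout cells against 8.64, 9.03 and 8.72 in parental cells (−1.66, 3.16-fold lower, adjusted p = 3.97e-08). The others called were E2F8 (0.59), CDKN3 (0.59), CDKN1B (0.48), RB1 (0.35), E2F7 (−0.41) and CDK4 (−0.25), and without parental replicate 1 the count lower was 1. Of 60 DNA replication genes, 5 were called higher and 3 lower, and 3 and 5 without parental replicate 2. MTBP, which helps to fire replication origins, read 10.05, 9.85 and 9.83 in knockout cells against 8.35, 8.45 and 8.28 in parental cells (1.55, adjusted p = 5.39e-14). DSCC1, a subunit of a clamp loader, was higher by 1.37, while the sliding clamp PCNA (−0.58) and the helicase MCM8 (−0.85) were lower. Of nucleotide synthesis genes 3 of 23 were higher, RRM2B (0.50), TYMS (0.32) and TK1 (0.27), with 1 left when knockout replicate 2 or parental replicate 1 was left out. None of 44 replication-dependent histone genes was called by limma, with 4 higher and 1 lower at an unadjusted p below 0.05.

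Among genes that sense and repair DNA breaks, none of 17 checkpoint genes was called by limma (2 higher at an unadjusted p below 0.05). Of 33 homologous recombination and Fanconi anemia genes, RAD51AP1 was higher (0.47), and NBN (−0.53), EXO1 (−0.43), EME1 (−0.39) and RAD50 (−0.29) were lower. That count of 4 lower was 1 without knockout replicate 2 and 2 without parental replicate 1 or 3. NBN and RAD50 are subunits of the complex that recognises break ends. Of 15 end joining genes, MAD2L2 (0.79) and NHEJ1 (0.56) were higher.

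Targets of p53 leaned towards higher signals, with 10 of 41 called higher and 1 lower, and a median of 0.17. FAS, the death receptor, read 6.83, 7.63 and 7.09 in knockout cells against 5.73, 6.29 and 5.58 in parental cells (1.32, 2.49-fold, adjusted p = 4.52e-06). APAF1, the core of the apoptosome, read 5.96, 5.65 and 5.96 in knockout cells against 4.38, 4.31 and 4.77 in parental cells (1.37, adjusted p = 9.63e-07). CDKN1A, the p21 inhibitor of cyclin-dependent kinases, read 5.55, 4.88 and 4.54 in knockout cells against 4.02, 4.63 and 3.87 in parental cells, called at 0.82 (adjusted p = 0.0129) although the groups overlapped. FUCA1 (1.23), the autophagy regulator DRAM1 (not above background in parental cells, at least 1.19-fold higher, adjusted p = 7.18e-07), CCNG1 (0.89), CCNG2 (0.82), PLK2 (not above background in parental cells, at least 1.14-fold higher, adjusted p = 0.0385), the decoy receptor TNFRSF10D (0.60) and RRM2B (0.50) were the others. The nuclease AEN was lower (−0.47). Further p53 targets were not called: MDM2, the ligase that degrades p53, read 7.11, 7.21 and 7.36 in knockout cells against 7.51, 7.37 and 7.74 in parental cells (−0.32, adjusted p = 0.179), and GDF15 differed by −0.04 (adjusted p = 0.952). At 0 Gy, 8 p53 targets were called higher and 2 lower, and FAS and CDKN1A differed by 1.42 and 0.97. FAS also lies on chromosome 10, with 12 of its 20 neighbours called higher. Of 19 BCL2 family genes BCL2L11, the death activator BIM, was called (0.67).

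ATF4 is the transcription factor that is translated when the integrated stress response is active. Of 47 measured genes of the amino acid response under it, 11 were called lower in knockout cells and none higher (2 higher at an unadjusted p below 0.05 by limma). The other 36 did not pass, 16 differences were positive, and the median was −0.13. Without parental replicate 3, 2 were called higher, and 1 without knockout replicate 1. CHAC1, a glutathione-degrading enzyme, read 5.37, 5.39 and 5.83 in knockout cells against 6.85, 6.72 and 6.71 in parental cells (−1.23, 2.34-fold lower, adjusted p = 1.06e-06). ASNS, which makes asparagine, read 8.03, 8.48 and 8.47 in knockout cells against 9.10, 8.98 and 9.09 in parental cells (−0.73, adjusted p = 8.10e-05). SLC7A5, the light chain of a large neutral amino acid transporter, read 8.78, 9.13 and 9.33 in knockout cells against 9.99, 10.11 and 10.09 in parental cells (−0.98, adjusted p = 3.26e-06). In all 3 genes each knockout array was under each parental array. SLC3A2, the heavy chain that pairs with SLC7A5, was lower by −0.62, the glycine transporter SLC6A9 by −0.74, and the enzymes CTH, SHMT2 and PSAT1 by −0.54, −0.47 and −0.45. TRIB3 (−0.78) lost its call without knockout replicate 3 (adjusted p = 0.193), parental replicate 1 (0.118) or parental replicate 2 (0.0755). ATF3 read 3.87, 3.63 and 3.78 in knockout cells against 4.41, 4.25 and 4.28 in parental cells and was not called (−0.55, adjusted p = 0.118). Of 36 amino acid transporters, which share members with that list, 9 were lower and SLC38A3 higher (0.58); outside it, the glutamate transporter SLC1A1 was not above background in knockout cells and at least 1.42-fold lower (adjusted p = 0.0423). The ATF4 list had 10 called lower and 2 higher at 0 Gy (median −0.15) and 20 lower and none higher 24 h after 2 Gy (median −0.34). CHAC1 differed by −0.44 at 0 Gy, and its difference of line differences was −0.79 (SE 0.23, unadjusted p = 0.00162, adjusted p = 1.00). Of 22 genes of the endoplasmic reticulum stress response, EDEM1 (0.67) and the kinase EIF2AK3 (0.65) were higher and PDIA3 (−0.29) lower, and EDEM1 lost its call without knockout replicate 2 (adjusted p = 0.0585) or parental replicate 2 (0.0907), PDIA3 without knockout replicate 1 (0.0585).

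**Figure D4:**
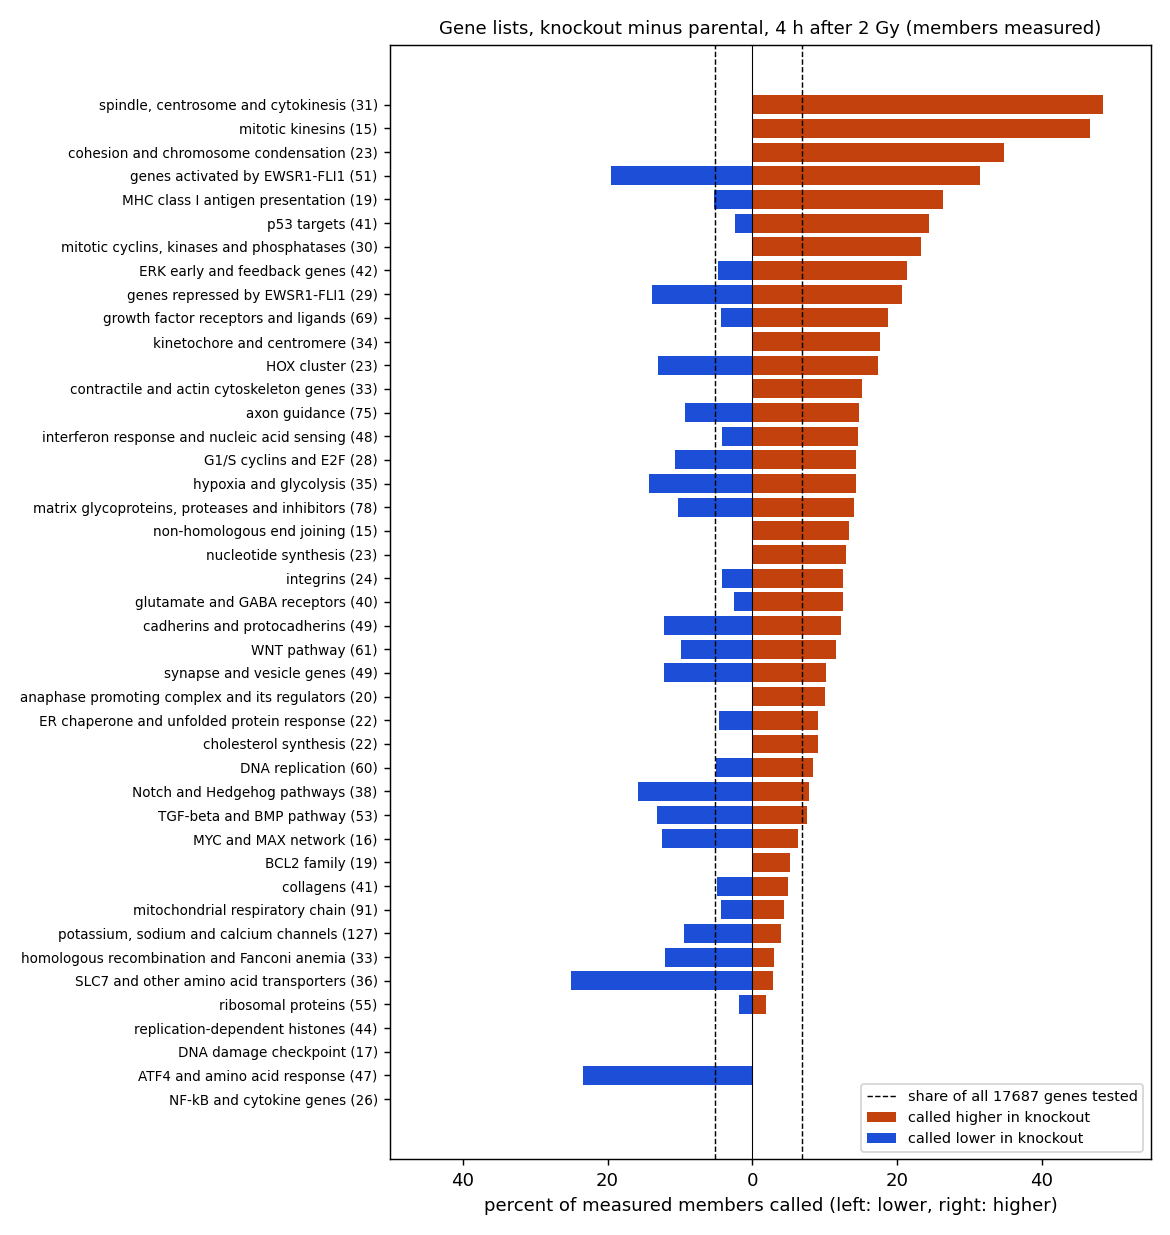
Percent of the measured members of each gene list called higher (right) and lower (left) in knockout cells 4 h after 2 Gy, with the number measured in parentheses and the shares of all 17687 genes (6.87% and 5.13%) as dashed lines; the Schlafen family and the cell type markers are not drawn. Among the lists drawn, spindle genes (15 of 31) and mitotic kinesins (7 of 15) have the highest shares to the right. Amino acid transporters (9 of 36) and ATF4 genes (11 of 47) have the highest to the left. Parental replicate 2, the array with the narrow signal range, is included.

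Early and feedback genes of the ERK kinase pathway had 9 of 42 called higher and 2 lower, and 5 higher without knockout replicate 3. EGR1, an immediate early transcription factor, read 6.68, 7.79 and 6.96 in knockout cells against 5.53, 6.39 and 5.42 in parental cells (1.36, adjusted p = 0.000809). DUSP6, the phosphatase that switches ERK off, read 4.63, 5.28 and 4.80 in knockout cells against 3.53, 3.39 and 3.77 in parental cells (1.34, adjusted p = 7.07e-06). Both genes were higher on every knockout array. DUSP5 was higher by 1.05, SPRED2 and ETV1 by 0.99 each, and IER5 by 0.85. The ETS factor ETV5 read 3.23, 4.44 and 5.24 in knockout cells and was not above background in parental cells, at least 1.72-fold higher (adjusted p = 0.00286), a call lost without knockout replicate 3 (0.0598). The feedback inhibitor SPRY1 went the other way, with 3.62, 3.64 and 3.71 in knockout cells against 4.95, 5.20 and 5.85 in parental cells (−1.67, adjusted p = 1.55e-05). MYC, the growth-promoting transcription factor, read 8.86, 9.36 and 9.08 in knockout cells against 9.99, 10.21 and 10.05 in parental cells (−0.98, 1.98-fold lower, adjusted p = 7.13e-08). In the MYC network of 16 genes its partner MAX was lower too (−0.38) and the antagonist MXD1 higher (0.61). JUN was not called (−0.25, adjusted p = 0.564).

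Of 48 interferon response and nucleic acid sensing genes, 7 were called higher and 2 lower, and 4 higher without knockout replicate 2. TLR3, an endosomal sensor of double-stranded RNA, read 4.40, 4.49 and 4.23 in knockout cells and was not above background in parental cells (2.84, 3.07 and 2.60), at least 1.81-fold higher (adjusted p = 1.01e-06). PARP9 was at least 1.72-fold higher on the same grounds (adjusted p = 0.000163), and IFI44L was not above background in knockout cells, at least 2.27-fold lower (adjusted p = 5.54e-06). The share called higher was 14.6%, against 6.87% of all genes, and the share called lower 4.17%, against 5.13% of all genes. The median of the list was 0.01. Of 19 genes of MHC class I presentation 5 were higher, HLA-E (0.84), MICB (0.81), the peptide transporter subunit TAP2 (0.72), TAPBP (0.38) and B2M (0.23), with 3 left without knockout replicate 1 or 2 or parental replicate 3. None of 26 NF-kB and cytokine genes was called by limma, with 3 higher and 3 lower at an unadjusted p below 0.05.

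Genes listed as activated by EWSR1-FLI1 moved in both directions, with 16 of 51 called higher and 10 lower and a median of 0.12. PRKCB, a protein kinase C isoform, read 8.42, 8.14 and 8.12 in knockout cells against 7.25, 6.97 and 7.13 in parental cells (1.11, adjusted p = 1.64e-06). PPP1R1A, a phosphatase inhibitor, read 5.43, 5.50 and 5.51 in knockout cells against 7.64, 7.51 and 7.13 in parental cells (−1.95, 3.85-fold lower, adjusted p = 3.45e-12). The groups were apart for both, in opposite directions. ITM2A (1.17), PDGFC (1.05), LIPI (1.03) and the homeobox factor NKX2-2 (0.79) were also higher, and the Hedgehog effector GLI1 (−1.05), the neuropeptide Y receptor NPY5R (−0.92) and STEAP1 (−0.48) lower. Of 29 genes listed as repressed by the fusion, 6 were higher, led by TGFBR2 (1.46) and FOXO1 (1.16), and 4 lower, with a median of −0.02. LOX, the collagen cross-linking enzyme, was entered on both lists, so it counts as lower on each and its place on either is uncertain. It was 5.38-fold lower (3.83, 3.59 and 3.89 in knockout cells against 5.95, 6.12 and 6.53 in parental cells, adjusted p = 1.39e-11). The matrix protein TNC was also entered on both lists, with the same limit, and was called higher (adjusted p = 0.0025), with parental cells not above background. HOX cluster genes had 4 of 23 higher, HOXA2 (1.29), HOXD10 (0.85), HOXD8 (0.64) and HOXD11 (0.57), and 3 lower, HOXD13 (−0.66), HOXC10 (−0.57) and HOXC8 (−0.56).

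Matrix and adhesion genes had calls in both directions. Collagens, at 4.88% each way, were under the shares of all genes (6.87% higher and 5.13% lower). The 78 matrix glycoproteins, proteases and inhibitors were above them (14.1% and 10.3%). Of 78 matrix glycoproteins, proteases and inhibitors, 11 were higher, and 7 without knockout replicate 1, while 8 were lower. FBN1, the fibrillin of elastic microfibrils, read 5.66, 5.75 and 5.64 in knockout cells against 4.24, 4.31 and 4.04 in parental cells (1.49, adjusted p = 6.11e-08), and the metalloproteinase inhibitor TIMP4 read 6.44, 6.06 and 7.62 in knockout cells against 5.10, 5.08 and 5.03 in parental cells (1.64, adjusted p = 0.000143). Both were higher on all knockout arrays, as were MMP2 (1.14) and NID1 (1.32) in the mean. Besides SERPINF1, MFAP4 and LOX, the lower members were MMP16 (−1.44), SDC2 (−0.78), and LUM, THBS2 and OGN, which were not above background in knockout cells. THBS2 was at least 1.23-fold lower (adjusted p = 0.0096), and LUM and OGN get no fold. Collagens had 2 of 41 higher (COL5A1 0.83, COL6A1 0.68) and 2 lower (COL11A1, and COL12A1, which was not above background in knockout cells and at least 1.61-fold lower, adjusted p = 9.01e-05), and COL5A1 lost its call without knockout replicate 1 (adjusted p = 0.0665) and COL6A1 without parental replicate 1 (0.0651). Integrins had 3 of 24 higher, ITGB2 (1.55), ITGB5 (1.01) and ITGAV (0.58), and ITGA2 was called lower while below background on all 6 arrays. Contractile and actin genes had 5 of 33 higher and none lower (2 lower at an unadjusted p below 0.05 by limma), led by smooth muscle actin ACTA2 (1.39), and 3 without knockout replicate 2 or 3 or parental replicate 1 or 2. Of 49 cadherins and protocadherins 6 were higher and 6 lower. PCDH10 read 7.41, 7.25 and 6.96 in knockout cells against 5.24, 4.70 and 5.40 in parental cells (2.09, adjusted p = 1.62e-09), and CDH11, a mesenchymal cadherin, read 4.75, 5.18 and 5.18 in knockout cells against 6.65, 7.08 and 7.18 in parental cells (−1.93, adjusted p = 3.29e-11). FAT1 (−1.52) and DCHS1 (−1.11) were lower with CDH11.

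Of 69 growth factor receptors and ligands 13 were higher, and 8 without knockout replicate 2, while NRG4 (−1.14), the insulin-like growth factor receptor IGF1R (−0.69) and VEGFA (−0.40) were lower. FLT1 and its ligand PGF (1.19) were both higher, and so were PDGFRA and its ligand PDGFC. FGFR2 read 6.77, 6.77 and 6.67 in knockout cells against 5.15, 5.21 and 5.02 in parental cells (1.61, adjusted p = 4.96e-08), with every knockout array higher. Of 53 TGF-beta and BMP genes, 4 were higher and 7 lower. ENG, a co-receptor, read 9.66, 10.01 and 9.91 in knockout cells against 7.99, 8.15 and 7.93 in parental cells (1.83, 3.56-fold, adjusted p = 2.81e-13). It rose with TGFBR2, while the ligands BMP6 (−1.27), TGFB3 (−0.99) and BMP5 (−0.89) and the antagonists CHRDL1 and NOG (−1.22) were lower. Of 61 WNT pathway genes 7 were higher and 6 lower: the receptor ROR2 read 5.99, 5.97 and 6.01 in knockout cells against 4.36, 4.27 and 3.93 in parental cells (1.80, adjusted p = 2.90e-09), and its ligand WNT5A was higher by 0.80. Of 38 Notch and Hedgehog genes 3 were higher, and 1 without knockout replicate 2, and 6 lower, among them the Hedgehog receptor and target PTCH1 (−1.16), the co-receptor CDON (−1.24) and GLI1.

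Genes with roles in neurons had calls both ways as well. Of the channel genes 3.94% were called higher, against 6.87% of all genes, and 9.45% lower, against 5.13%. Of 75 axon guidance genes 11 were higher and 7 lower. SLITRK6 read 9.39, 9.12 and 8.64 in knockout cells against 7.30, 7.31 and 7.32 in parental cells (1.74, adjusted p = 2.35e-09), and the semaphorin receptor NRP1 read 7.10 to 7.74 in knockout cells against 5.70 to 6.15 in parental cells (1.47, adjusted p = 5.61e-08). The netrin receptor DCC (1.53) was higher and the semaphorin SEMA6A lower (−1.47). SEMA3C was not above background in knockout cells and at least 2.70-fold lower (adjusted p = 6.85e-10). Of 127 potassium, sodium and calcium channel genes 5 were higher, led by the potassium channel KCNH2 (8.52, 8.53 and 8.50 in knockout cells against 6.98, 7.17 and 6.98 in parental cells, 1.47, adjusted p = 1.24e-13), and 12 lower, led by the calcium channel subunit CACNA2D1 (3.29, 3.84 and 4.09 in knockout cells against 5.69, 5.15 and 6.33 in parental cells, −1.98, adjusted p = 1.35e-07). Each of these 2 channel genes was apart between the lines. Glutamate and GABA receptors had 5 of 40 higher, led by the kainate receptor subunits GRIK3 (1.27) and GRIK2 (1.14), with 3 left without knockout replicate 2 and 2 without parental replicate 2, and GRM8 lower (−0.98). Synapse and vesicle genes had 5 of 49 higher, and 3 without knockout replicate 2 or parental replicate 1 or 2, and 6 lower, led by the vesicle fusion protein SNAP25 (−1.27).

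Metabolic and housekeeping lists had calls in both directions or few calls. Respiratory chain genes (4.4% each way) and ribosomal protein genes (1.82% each way) were under the shares of all genes (6.87% and 5.13%). Hypoxia and glycolysis genes were above them (14.3% each way). Of 35 hypoxia and glycolysis genes 5 were higher, with hexokinase HK1 (1.57) first, and 5 lower, with the enolase ENO2 (−1.26) first, and the count lower was 3 without knockout replicate 1 or parental replicate 2. HK1 lies on chromosome 10. Of 91 respiratory chain genes 4 were higher and 4 lower, and 2 higher without knockout replicate 1 or 2 or parental replicate 2. Of 22 cholesterol synthesis genes SQLE (0.76) and ACAT2 (0.54) were higher, and of 55 ribosomal protein genes RPS12 was higher (0.36) and RPS26 lower (−0.19).

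Called genes were unevenly spread over the genome, as was already seen for chromosome 10. SNTB1 lies on chromosome 8, where 15 of its 20 nearest measured neighbours were called higher and none lower, with a median difference of 1.18. This stretch was singled out after its values were seen. It holds MTBP and DSCC1, described above, with MRPL13, a mitochondrial ribosomal protein (1.60), ZHX1 (1.64), DERL1, which helps to export misfolded proteins from the endoplasmic reticulum (1.33), TAF2 of the general transcription factor TFIID (1.29) and EXT1, which builds heparan sulfate (0.73). MRPL13 differed by 1.63 at 0 Gy, and ZHX1 by 1.63 too. On chromosome 20, 66 of 498 genes (13.3%) were called lower, and 14 of the 20 neighbours of PCNA were lower, with a median of −0.72. Around HHEX on chromosome 10, 14 of 20 neighbours were called higher, and around CMTM7 on chromosome 3, 11 of 20. Chromosome 12 had 102 of 929 genes called lower. Copy number was not measured here, and its part in these differences was not tested.

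The line difference after 2 Gy was set beside that on the other arrays, which share no array with it but enter the same estimate of spread. Of the 1215 genes called higher, 824 were also called higher at 0 Gy, 4 h, which is 67.8% of the 1215 and 74.3% of the 1109 at 0 Gy. Of the 908 called lower, 649 were called lower at 0 Gy, 71.5% of the 908 and 66.8% of the 972. With 24 h after 2 Gy the shared genes were 813 higher (66.9% of 1215 and 73.1% of 1112) and 629 lower (69.3% of 908 and 62.6% of 1005). With 0 Gy, 24 h included (6.47% of all genes higher and 5.09% lower), 626 genes were called higher and 502 lower in all 4 line comparisons. Another 200 higher and 158 lower were called after 2 Gy at 4 h and in none of the other 3. Their differences were modest, with a median of 0.53 and a highest value of 0.99 for those higher, and a median of −0.54 and a lowest value of −0.93 for those lower.

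**Figure D5:**
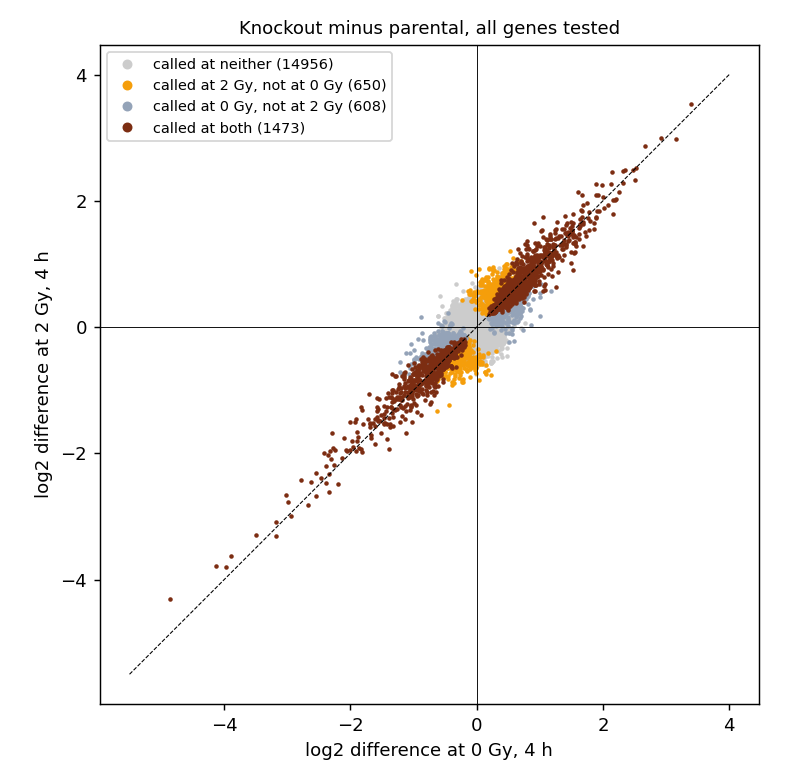
Knockout minus parental log2 difference of each of 17687 genes at 2 Gy, 4 h (vertical) against that at 0 Gy, 4 h (horizontal, other arrays), coloured by calls, with equal values on the dashed line. Of the genes, 1473 were called at both doses, 650 at 2 Gy and not at 0 Gy, and 608 at 0 Gy and not at 2 Gy, and the far points lie near the dashed line.

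Tested directly by limma, no gene was called for a change of the line difference between 2 Gy and 0 Gy (0 of 17687). The lowest adjusted p was 1.00, and 461 genes (2.61%) had an unadjusted p below 0.05, where 5% would be expected without any change. Such a difference is less precise than a line difference (SE 0.175 against 0.124 for KIF20A). A gene without a call is therefore not shown to be equal at both doses. Among the genes of lowest p, PPP1R13B, a p53-binding protein of the ASPP family, read 5.87, 5.99 and 5.78 in knockout cells against 6.51, 6.78 and 6.48 in parental cells after 2 Gy. It was called lower there (−0.71, adjusted p = 0.00184) and differed by 0.13 at 0 Gy, and the difference of −0.84 (SE 0.224) had an adjusted p of 1.00. HOXD9 (−0.80) and C9orf72 (1.03) had differences of line differences of like size, and POTED, GPX5, IL1B, RDH16 and ZSCAN5B, also among the 8 lowest, were near or below background. Between 4 h and 24 h after 2 Gy no gene was called either (0% of 17687, lowest adjusted p = 0.256, 628 genes or 3.55% at an unadjusted p below 0.05). The genes of lowest p there were MBD3L4 (−3.78 at 4 h and −5.13 at 24 h), ZCCHC12 (0.71 and −0.61), ADCY2 (−0.61 and 0.20), KCNH7 (−0.75 and −2.12), ADGRL4 (0.21 and −0.60), TIAM2 (0.27 and 1.56), ASNS (−0.73 and −1.51) and CREB5 (−0.41 and −1.50). Of these, ADCY2, KCNH7, ADGRL4 and TIAM2 were below background on all 6 arrays at 4 h, so no fold is given for them there, and ZCCHC12 was below background in parental cells (at least 1.29-fold higher, adjusted p = 0.0131).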

How the data were processed

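RNA was measured on Affymetrix whole-transcript arrays. The authors deposited log2 values, 1 for each probe set and array, made with RMA and Affymetrix Expression Console 1.1, per the submitters' processing notes. RMA corrects background, equalises the signal distributions by quantile normalization, which hides a global shift, and summarises probes. The set of arrays that entered the normalization is not stated. Arrays carry no read depth, and their number limits the precision.

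Of 24351 probe sets, 17709 have 1 gene symbol. The brightest probe set was kept for each of the 20 genes with more than 1, which left 17687 genes with no filter on dim ones. Background was the 95th percentile of 612 negative control probe sets on each array, 3.46 to 3.68 on the 6 arrays. Where no array of a group exceeded it, the gene has a bound there, and "at least N-fold" is computed against the higher of background and signal.

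The tests were two-sided and used limma 3.58.1 under R 4.3.3, moderated along an intensity trend, with 1 mean for each of 8 groups over 24 arrays, and genes passed at a p below 0.05 after Benjamini-Hochberg adjustment over all of them. Every adjusted p is from this limma fit. The fit was also run on simulated data with independent noise for each gene and array. That run therefore says nothing about deviations that the genes of an array share.

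Of 1928 entries on 50 gene lists, 1793 were measured. The comparison, the lists and the readouts were chosen with earlier results of these data known, and lists are described by counts and medians without a test. Named are the Schlafen family, the 15 largest rises and falls among called genes without overlap, and up to 6 leading called members of a list or all of a count of 5 or fewer. Readouts given whether called or not, and the 8 genes of lowest p in each difference of differences, are named too. Other list members given are called ones added after their values were seen. Chromosomes are from RefSeq (GRCh38.p14). Alternatives tried were each array left out, a replicate block, the 6 arrays alone, no trend, array weights, centring and scaling, dim genes left out and averaged probe sets.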

Additional observations from a re-analysis of the deposited data

How the results depend on the processing

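Over the alternatives, the count of genes called higher ran from 867 (without parental replicate 2) to 1514 (with a replicate block over all 24 arrays) and the count called lower from 687 to 1269. With the replicate block on the 6 arrays alone, the counts were 1437 higher and 1109 lower. The deviations of same-numbered samples had correlations of 0.0821, 0.165 and 0.333, all positive but not all over 0.1, the threshold set for pairing. The main fit therefore used no replicate block. The labels do not say whether same-numbered samples were handled together, and those correlations do not settle it. No gene was called for the difference between 2 Gy and 0 Gy under any alternative run. For the difference between 4 h and 24 h after 2 Gy, 3 genes were called with the replicate block over all 24 arrays, and 0 to 1 when 1 array was left out. The genes called at 0 Gy, 4 h ran from 1562 to 2598, and at 2 Gy, 24 h from 1586 to 2683. Of 233 named genes that were called, 169 kept the call under every alternative run and 64 lost it under at least 1; none changed its sign while called. The mitotic count of 43 ran from 32 to 43 when 1 array was left out, and was 34 with arrays scaled to 1 interquartile range. Between 1 and 3 mitotic genes were called lower under 7 alternatives. With 3 arrays a group, a difference within about 0.315 log2 units of 0 was often not detectable. That value comes from intervals not adjusted for the number of genes, so larger differences could miss a call as well. KIF18A, for instance, was not called at 0.40 (adjusted p = 0.0694 by limma).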
